A study of Mus musculus with 3 samples.

Results

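The 10 genes described here are members of the tumour necrosis factor (TNF) receptor and ligand families that lymphocytes use to receive survival and co-stimulatory signals. They were taken by symbol from the rows of the 3 gene-by-barcode matrices and make up 10 of the 32285 genes listed there. They comprise the receptors of the BAFF system (Tnfrsf13c, Tnfrsf13b and Tnfrsf17), the ligand BAFF itself (Tnfsf13b), the receptors Cd40, Cd27, Tnfrsf4, Tnfrsf18 and Tnfrsf9, and the ligand Tnfsf8. All 10 had UMIs (unique molecular identifiers, each standing for 1 captured RNA molecule) in every library.

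Peripheral blood mononuclear cells (PBMCs) of female C57BL/6 mice were profiled by droplet-based single-cell RNA sequencing of the 3' ends of transcripts, with 1 library per group. The young mice were 8 weeks old and the aged mice 16 months old, and neither is labelled with a treatment, although the methods of the study give the control mice injections of buffer. The aged-GA mice were 16 months old and received glycyrrhizic acid (GA), a saponin of licorice root, for 1 month. The study names several mice per group, but how they were combined in the 1 library was not given in the sources used here, so age and treatment cannot be told apart from differences between mice or between library preparations.

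Receptors of this superfamily are set off by trimers of their ligands and signal through TRAF adaptor proteins to the NF-kappaB transcription factors. BAFF, made largely by myeloid cells, keeps mature B cells alive through BAFF-R (Tnfrsf13c), while TACI (Tnfrsf13b) restrains and directs activated B cells and BCMA (Tnfrsf17) sustains plasma cells. Cd40 receives T cell help on B cells and myeloid cells, and Cd27, OX40 (Tnfrsf4), GITR (Tnfrsf18) and 4-1BB (Tnfrsf9) are co-stimulatory receptors of T and NK cells. Tnfsf8 is the ligand of CD30, a receptor of activated lymphocytes.

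The 250 bases before the RefSeq start are given for 5 of the members, from GRCm38.p6. Tnfrsf13b and Tnfrsf13c are shown as B cell receptors that differed in their change between young and aged mice. Tnfrsf4 and Tnfrsf18 are shown as neighbours whose levels were both high in T cells with Foxp3. The second of 2 listed starts of Tnfrsf9 is shown for its NF-kappaB consensus. Capitals mark matches on either strand to the motifs searched, which were the GC box GGGCGG, the TATA box TATAAA, the PU.1 motif GAGGAAGT and the NF-kappaB consensus.
Tnfrsf13b (chr11:61126505-61126754, plus strand): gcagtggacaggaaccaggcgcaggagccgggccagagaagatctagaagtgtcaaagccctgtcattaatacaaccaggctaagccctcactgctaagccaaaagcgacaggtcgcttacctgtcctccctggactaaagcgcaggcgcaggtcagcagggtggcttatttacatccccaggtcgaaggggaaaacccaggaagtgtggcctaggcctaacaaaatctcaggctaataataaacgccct
Tnfrsf13c (chr15:82224381-82224630, minus strand): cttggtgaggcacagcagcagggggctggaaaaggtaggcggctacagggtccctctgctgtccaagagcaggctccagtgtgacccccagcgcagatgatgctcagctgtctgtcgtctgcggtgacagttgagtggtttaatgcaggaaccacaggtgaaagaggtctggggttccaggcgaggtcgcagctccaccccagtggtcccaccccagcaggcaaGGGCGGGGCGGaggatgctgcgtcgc
Tnfrsf4 (chr4:156013445-156013694, plus strand): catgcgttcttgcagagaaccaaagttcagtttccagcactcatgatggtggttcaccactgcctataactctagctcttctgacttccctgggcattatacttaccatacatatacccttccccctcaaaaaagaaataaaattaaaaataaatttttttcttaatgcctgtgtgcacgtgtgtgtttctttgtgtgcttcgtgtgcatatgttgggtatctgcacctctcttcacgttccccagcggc
Tnfrsf18 (chr4:156026072-156026321, plus strand): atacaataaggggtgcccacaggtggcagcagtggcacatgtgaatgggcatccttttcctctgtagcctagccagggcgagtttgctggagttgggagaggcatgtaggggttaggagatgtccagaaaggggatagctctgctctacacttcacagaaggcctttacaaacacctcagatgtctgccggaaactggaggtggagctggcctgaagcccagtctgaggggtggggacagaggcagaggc
Tnfrsf9, second start (chr4:150927749-150927998, plus strand): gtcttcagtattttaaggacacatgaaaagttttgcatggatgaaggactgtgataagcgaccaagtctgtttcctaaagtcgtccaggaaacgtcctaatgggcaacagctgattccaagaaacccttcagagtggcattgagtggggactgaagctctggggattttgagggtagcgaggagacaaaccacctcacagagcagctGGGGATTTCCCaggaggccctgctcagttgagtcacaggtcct

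Of these windows, Tnfrsf13c held 2 GC boxes, which overlap and start 26 and 21 bases before the transcript start. Of all 32851 promoter windows of this length, 32.7% held a GC box. The window of Tnfrsf9 held 2 overlapping matches to the NF-kappaB consensus, starting 43 and 42 bases before the start, and 3.90% of all windows held one. It was chosen for this match. The first start of Tnfrsf9 and the windows of the other members searched held none. The windows of Tnfrsf13b, Tnfrsf4 and Tnfrsf18 held no match to any of the 4 motifs, of which the TATA box was found in 12.4% and the PU.1 motif in 2.44% of all windows. A match describes letters only.

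The gene bodies, placed by the GENCODE annotation of GRCm38, lie on several chromosomes. Tnfrsf13b is at chr11:61126755-61149372, Tnfrsf13c at chr15:82221743-82224369, Tnfrsf17 at chr16:11313812-11320074 and Tnfsf13b at chr8:10006467-10039072. Cd40 is at chr2:165055627-165072948 and Cd27 at chr6:125232622-125237010. Chromosome 4 holds the other four, with Tnfsf8 at chr4:63831308-63861347, Tnfrsf9 at chr4:150914562-150946102, Tnfrsf4 at chr4:156013843-156016612 and Tnfrsf18 at chr4:156026164-156028895, so that 9551 bases separate Tnfrsf4 from Tnfrsf18. On the opposite strand, Cd27 overlaps Vamp1, Tnfrsf9 overlaps Camta1, Tnfrsf18 overlaps Gm16008, Tnfrsf13b overlaps Gm12269 and Tnfsf13b overlaps Gm44789, and Mir8113 lies on the strand of Cd27. The kit keeps the strand, but the strand setting of the counting was not given in the sources used here.

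The young, aged and aged-GA libraries held 10842, 16038 and 17332 barcodes, with 58894294 to 98155671 UMIs, and shared 50 to 62 barcodes with each other. After filtering, 8851, 10238 and 12648 cells remained, with a median of 4671, 3810.5 and 4752 UMIs, and 375, 1016 and 991 of them passed more than 1 gate and were set aside as mixed. Cells were assigned by marker gates, which gave 2227, 3896 and 5185 B cells, 5380, 2161 and 3481 T cells, 263, 202 and 202 NK cells, 52, 783 and 259 monocytes, 12, 745 and 497 neutrophils and 3, 49 and 63 plasma cells in young, aged and aged-GA mice, always in this order. The gates held their own markers, with 4 of 4 B markers summing to 5944, 6453 and 6516 CPM (counts, here UMIs, per 1000000 UMIs of the gated cells) in B cells and 6 of 6 T markers to 5238, 5112 and 4926 CPM in T cells. Markers of other cells also differed between libraries. The 6 T markers summed to 33.2, 41.2 and 62.7 CPM in B cells, the 6 neutrophil markers to 0.827, 37.4 and 20.8 CPM in B cells, and the 6 NK markers to 303, 968 and 457 CPM in T cells. The young monocyte, neutrophil and plasma cell gates are small, and the young values in them rest on few UMIs. The mixed cells included 440 aged and 103 aged-GA cells that passed both the monocyte and the neutrophil gate. With such cells counted as monocytes, there were 54, 1223 and 362 monocytes.

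With 1 library per group no test between groups was possible. Intervals in brackets are exact 95% intervals that cover counting error only. A gene was set apart by size where its ratio, with 1 CPM added to both levels, was past 1.5-fold and both libraries together held at least 100 UMIs. The aged library enters both contrasts, so aged over young and aged-GA over aged are not independent.

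**Figure D1:**
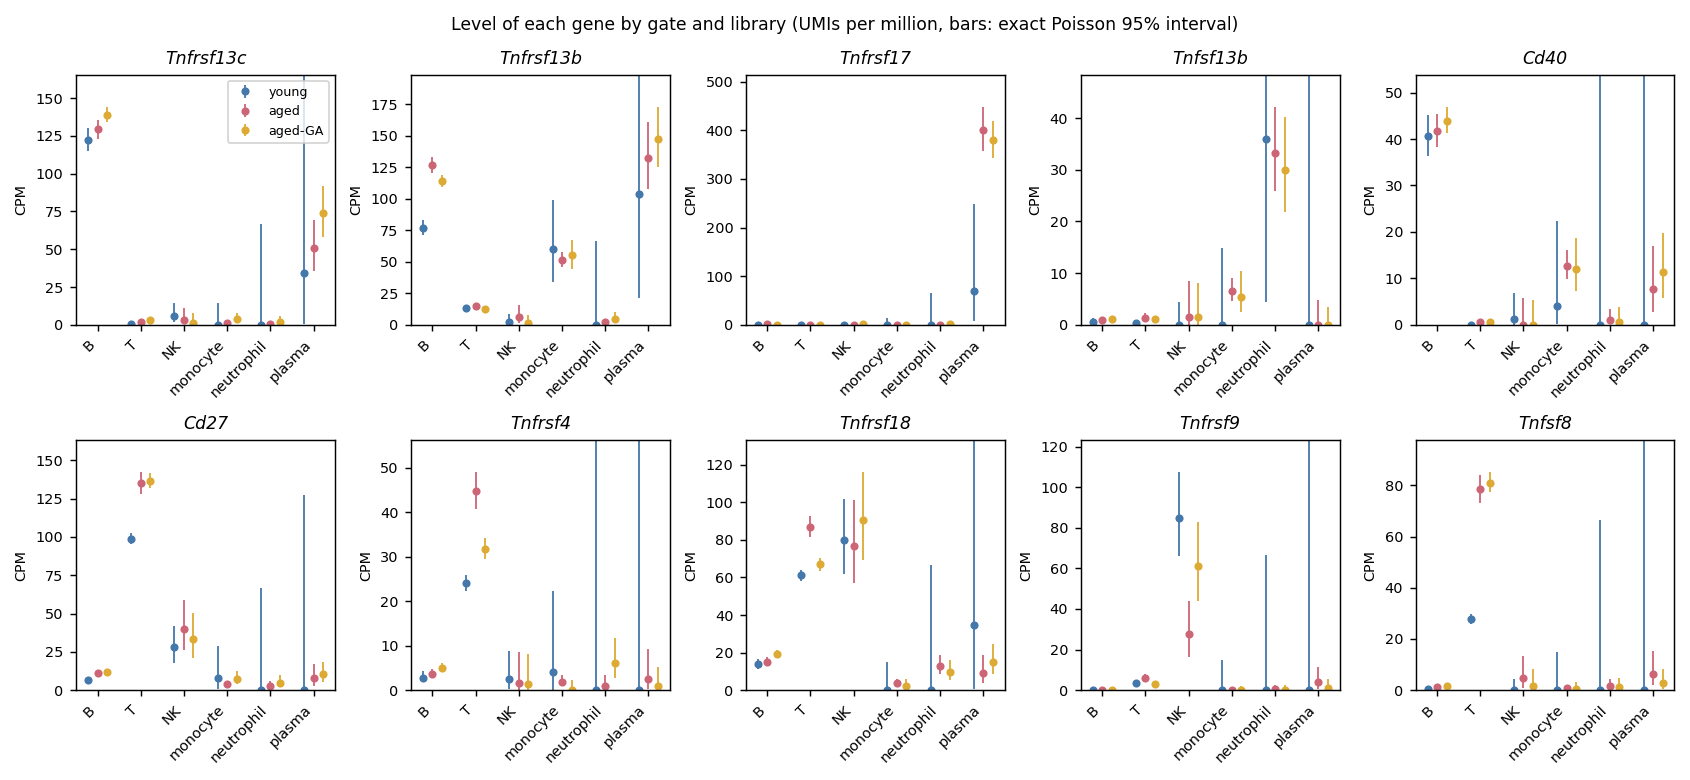
Level of each gene (CPM, linear axis from 0) in the B, plasma, T, NK, monocyte and neutrophil gates of the young, aged and aged-GA libraries, with exact 95% Poisson intervals as bars. The y axes are cut, so that the intervals of gates with few cells, such as the 3 young plasma cells and the 12 young neutrophils, run past the top of some panels. Tnfrsf13c stood highest in B cells, Tnfrsf17 in plasma cells of the aged and aged-GA libraries, Tnfsf13b in neutrophils, Cd27, Tnfrsf4 and Tnfsf8 in T cells and Tnfrsf9 in NK cells.

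The BAFF receptor Tnfrsf13c was a B cell gene in each library and hardly differed between them. In B cells it stood at 122 CPM [115 to 130], 129 CPM [123 to 136] and 139 CPM [134 to 144], from 1036, 1719 and 3042 UMIs. B cells held 81.4%, 77.2% and 76.7% of its UMIs over all kept cells. Aged over young, its ratio was 1.06 [0.978 to 1.14], and aged-GA over aged it was 1.07 [1.01 to 1.14]. Relative to the median of all genes in B cells, the aged over young log2 ratio was -0.20. In T cells it stood at 0.697, 1.70 and 2.91 CPM. The summed B markers in T cells, all 4 of which were found, had the same order at 13.5, 41.8 and 57.0 CPM, and their part in these low values was not tested.

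Tnfrsf13b, which encodes TACI, was higher in B cells of the aged than of the young library. Its level was 77.1 CPM [71.3 to 83.3] in the young, 127 CPM [121 to 133] in the aged and 114 CPM [109.6 to 119] in the aged-GA library, so both aged libraries stood above the young one with intervals that did not overlap. Aged over young, the ratio was 1.64, or 0.71 [0.58 to 0.85] on the log2 scale. Aged-GA over aged it was 0.901 [0.847 to 0.960], a smaller difference in the other direction. The median log2 ratio of all 8687 genes with enough UMIs in B cells was 0.28 for aged over young, and Tnfrsf13b was 0.43 above that median. The difference was also seen in the share of cells. With every cell thinned to 2000 UMIs, 11.8%, 22.5% and 19.3% of B cells had a Tnfrsf13b UMI, against 22.6%, 32.3% and 34.9% before thinning. In neutrophils, which should lack the gene, the thinned shares were 0%, 0.429% and 1.16%. The young 0% comes from 10 cells, and its interval reaches 30.8%, so it gives no usable background. In barcodes dominated by haemoglobin, Tnfrsf13b stood at 2.65, 19.97 and 25.5 CPM of the UMIs that are not haemoglobin, from 1, 23 and 24 UMIs, and Tnfrsf13c at 2.65, 10.4 and 15.9 CPM, from 1, 12 and 15 UMIs. The part of free RNA in the B cell levels was not tested. Thinning left out 38, 116 and 43 B cells and 2, 279 and 153 neutrophils. The median depth was 3389, 3046 and 3737 UMIs in B cells and 2821, 2206 and 2392 UMIs in neutrophils.

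Tnfrsf13b differed between young and aged mice in both kinds of B cell split by Fcrl5, Zbtb20 and Mzb1. In B cells with UMIs of at least 2 of Fcrl5, Zbtb20 and Mzb1, genes raised in marginal zone and B-1 cells, its level was 86.4, 135 and 120.3 CPM, an aged over young ratio of 1.56. In the other B cells it was 74.2, 123 and 111 CPM, a ratio of 1.66. The first kind made up 18.6%, 20.7% and 27.8% of B cells. Tnfrsf13c stood at 112, 122 and 128 CPM in the first kind and at 126, 132 and 145 CPM in the others. B cells with Cd93, a gene of recently formed B cells, numbered 54, 110 and 115, and there Tnfrsf13c stood at 124 CPM [82.2 to 179], 187 CPM [148 to 232] and 196 CPM [159 to 239], with intervals that overlap between young and aged mice. In the same cells Tnfrsf13b stood at 110, 139 and 140 CPM, from 25, 59 and 70 UMIs. Its aged over young log2 ratio there was 0.34 [-0.36 to 1.07], an interval that spans 0.

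Beyond B and plasma cells, Tnfrsf13b was also seen in monocytes and T cells, where Tnfrsf13c had few UMIs. Monocytes held 15, 275 and 91 Tnfrsf13b UMIs, which gave 60.1 CPM [33.6 to 99.1], 51.5 CPM [45.6 to 58.0] and 55.0 CPM [44.3 to 67.6]. The same monocytes held 0, 5 and 6 UMIs of Tnfrsf13c. B markers in monocytes summed to 32.0, 43.8 and 72.0 CPM, of which 3, 4 and 4 of the 4 were found. Monocytes with Ly6c2 or Ccr2, the classical kind, stood at 71.4 CPM [14.7 to 209], 56.1 CPM [48.7 to 64.3] and 49.0 CPM [36.2 to 64.8], and those with Ace, Cd300e or Nr4a1 and neither of the first at 58.1 CPM [30.0 to 101.5], 42.1 CPM [32.9 to 53.1] and 64.3 CPM [46.3 to 86.9]. T cells held 384, 157 and 262 Tnfrsf13b UMIs at 13.4, 14.8 and 12.3 CPM, against 20, 18 and 62 UMIs of Tnfrsf13c. Within T cells, Tnfrsf13b was higher in cells with Foxp3, the factor that defines regulatory T cells, at 33.2 CPM [16.6 to 59.4], 38.3 CPM [18.4 to 70.5] and 41.5 CPM [21.4 to 72.5], than in CD8 T cells, at 10.1 CPM [8.35 to 12.1], 10.3 CPM [7.56 to 13.7] and 6.49 CPM [5.10 to 8.13]. In each library these intervals did not overlap. CD4 T cells without Foxp3 stood between them, at 13.97, 17.3 and 21.7 CPM, from 70, 39 and 79 UMIs. The Foxp3 values rest on 11, 10 and 12 UMIs, and their difference from these CD4 T cells was not tested. Plasma cells held 3, 102 and 156 UMIs at 104 CPM [21.4 to 303], 132 CPM [108 to 160.4] and 148 CPM [125 to 173], and their intervals overlapped with those of B cells in young and aged mice.

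Tnfrsf17, which encodes BCMA, was a plasma cell gene. Plasma cells of aged and aged-GA mice stood at 400.4 CPM [357 to 448] and 380.1 CPM [344 to 419], from 309 and 402 UMIs, and the 3 plasma cells of young mice held 2 UMIs, or 69.1 CPM [8.36 to 249.4]. B cells held 1, 13 and 7 UMIs. Most Tnfrsf17 UMIs of the young library were in cells set aside as mixed. These held 36 of its 40 UMIs, against 26.0% and 23.8% of those in the other libraries. With every cell that passed the plasma gate counted, whatever else it passed, there were 7, 88 and 113 cells and the levels were 350.3 CPM [247 to 483], 309 CPM [282 to 339] and 248 CPM [227 to 270]. The young level rests on 37 UMIs in these 7 cells, and whether the mixed ones are doublets was not tested. The aged over young ratio of 5.80 [1.59 to 48.1] in plasma cells therefore turned into a log2 ratio of -0.18, and no direction is drawn from it. Aged-GA over aged, the ratio was 0.949, or -0.07 [-0.29 to 0.14] on the log2 scale. With every cell of the plasma gate counted, the aged-GA level was below the aged one, with the intervals above not overlapping. The ratio thus depends on which cells are counted, and no direction is drawn from it either.

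Of the members with at least 100 UMIs, 1 of 2, Tnfrsf17, was past 1.5-fold higher in plasma cells of aged over young mice. Of all genes, 32.4% were past 1.5-fold higher and 54.7% in either direction. Both members reached 100 UMIs through the aged library. The 3 young plasma cells held 2 UMIs of Tnfrsf17 and 3 of Tnfrsf13b, so no result is drawn from this count. Aged-GA over aged, 0 of 3 members were past 1.5-fold, against 10.8% of all genes either way. Tnfrsf13c stood at 50.5 CPM [35.9 to 69.1] and 73.8 CPM [58.3 to 92.1] in aged and aged-GA plasma cells, with overlapping intervals. Single cells held 17 of the 39 aged and 11 of the 78 aged-GA UMIs. B markers in these plasma cells summed to 2549 and 3099 CPM, and 35 of 49 and 32 of 63 cells had a Tnfrsf17 UMI. How far B cells in the gate make up its Tnfrsf13b and Tnfrsf13c levels was not tested.

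BAFF itself, Tnfsf13b, had its highest level in neutrophils and a lower one in monocytes. Neutrophils stood at 36.0 CPM [4.36 to 130.1], 33.3 CPM [25.9 to 42.1] and 30.0 CPM [21.8 to 40.2], from 2, 69 and 44 UMIs. Aged-GA over aged, the ratio was 0.901 [0.603 to 1.33]. Monocytes held 0, 35 and 9 UMIs, or 6.56 CPM [4.57 to 9.12] and 5.44 CPM [2.49 to 10.3] in aged and aged-GA mice, and the 0 in young monocytes allows up to 12.01 CPM. Aged monocytes and neutrophils therefore differed beyond counting error, while the young depth could not show such a difference. B cells stood at 0.590, 0.903 and 1.05 CPM and T cells at 0.418, 1.42 and 1.08 CPM. Neutrophils were few in the young library, and their share of all Tnfsf13b UMIs was 7.14%, 31.7% and 27.2%, beside 42.9%, 6.88% and 14.2% in T cells. Among members with at least 100 UMIs in neutrophils, 0 of 1 was past 1.5-fold aged-GA over aged, against 5.85% of all genes, and none had enough UMIs for aged over young.

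April (Tnfsf13), the second ligand of TACI and BCMA, was seen in monocytes at 164 CPM [118 to 223], 169 CPM [158 to 180.1] and 159.7 CPM [141 to 180.1] and in NK cells at 27.9, 35.4 and 56.9 CPM. It was taken from the list of ligands below and is no member of the 10.

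Cd40, the receptor for T cell help, was found in B cells at 40.6 CPM [36.4 to 45.2], 41.7 CPM [38.3 to 45.4] and 44.0 CPM [41.2 to 46.9], intervals that overlap in all 3 libraries. Aged over young, the ratio was 1.03 [0.897 to 1.18], and aged-GA over aged it was 1.05. Relative to the median of all genes in B cells, the aged over young log2 ratio was -0.24. Monocytes held 1, 68 and 20 UMIs, which gave 4.004 CPM [0.101 to 22.3], 12.7 CPM [9.89 to 16.1] and 12.1 CPM [7.39 to 18.7]. In aged mice the Ly6c2 or Ccr2 monocytes stood at 15.4 CPM and the others at 7.12 CPM. T cells held 1, 7 and 13 UMIs. Its ligand Cd40lg, a gene of helper T cells, stood at 21.4, 25.6 and 18.6 CPM in T cells, with an aged-GA over aged ratio of 0.725 [0.620 to 0.850]. This ratio is over all T cells, of which CD4 T cells made up 19.1%, 25.4% and 21.2%. The part of that share in the Cd40lg ratio was not tested.

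Over all B cells, 2 of the 5 members with at least 100 UMIs were past 1.5-fold higher in aged than in young mice, Tnfrsf13b and Cd27, and none was lower. Of all genes tested in B cells, 23.1% were past 1.5-fold higher and 2.22% lower, 25.3% in all. With haemoglobin, mitochondrial and ribosomal protein genes taken out of the total, the median of all genes was 0.20, and the signs of Tnfrsf13c and Cd40, which lay close to 0, turned, while Tnfrsf13b and Cd27 stayed past 1.5-fold. Aged-GA over aged, 0 of 6 members were past 1.5-fold. Of all genes, 0.684% were higher and 1.16% lower, 1.84% in all. The ratios of the members ran from 0.901 for Tnfrsf13b to 1.38 [0.973 to 1.98] for Tnfrsf4.

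**Figure D2:**
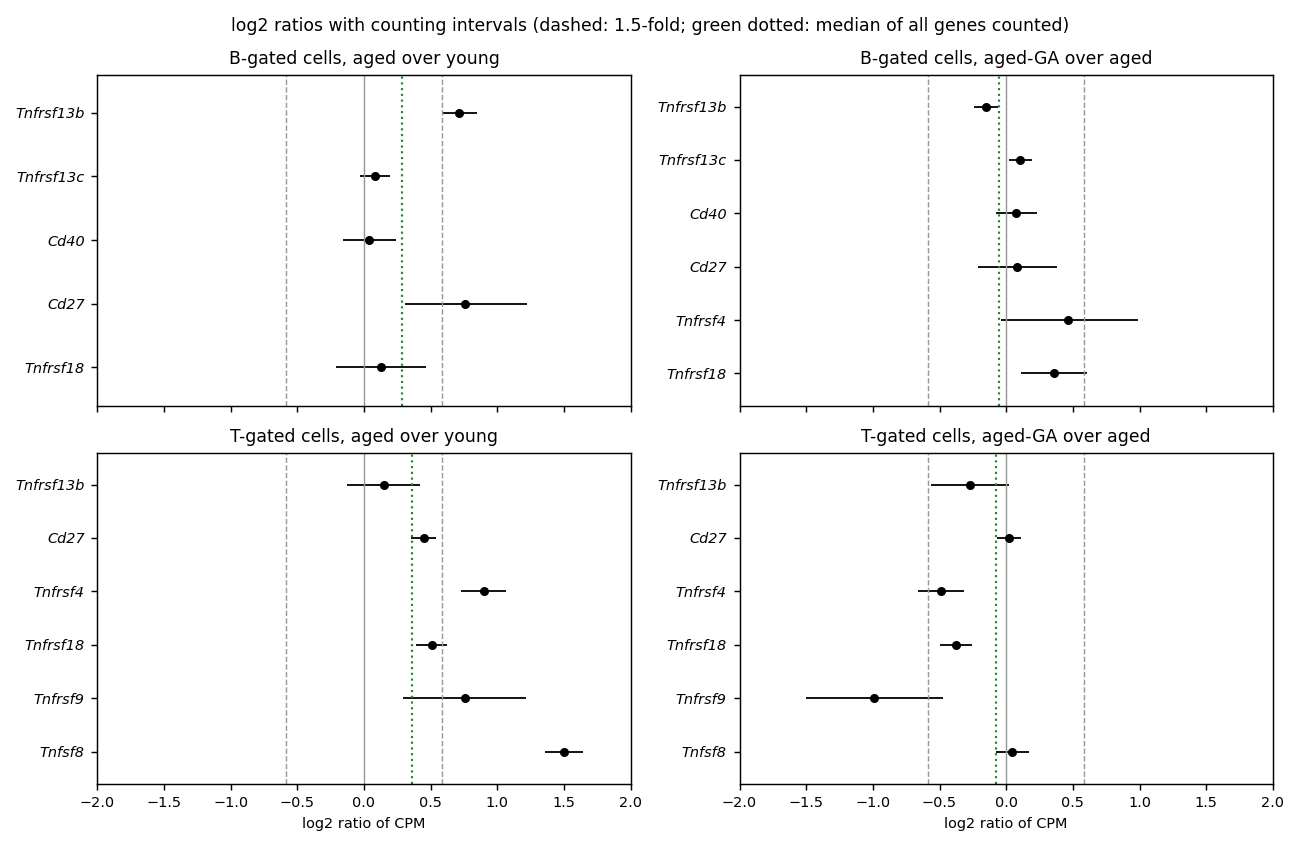
Log2 ratio of CPM, with nothing added to the levels, for the members with at least 100 UMIs over both libraries in B-gated and T-gated cells, aged over young and aged-GA over aged, with exact 95% intervals for counting error. Dashed lines mark 1.5-fold and the green dotted line the median of all genes, and Tnfsf8 in T cells lies farthest from 0, at a ratio of 2.82 for aged over young.

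Cd27 was mainly a T cell gene and low in B cells. It stood in T cells at 98.9 CPM [95.3 to 103], 135 CPM [128 to 142] and 137 CPM [132 to 142], so the aged and aged-GA libraries were alike and above the young one. Aged over young the ratio was 1.36 [1.28 to 1.45], which was 0.08 on the log2 scale above the median of all genes in T cells. Aged-GA over aged it was 1.01. In B cells, where Cd27 marks memory cells in people, it stood at 6.73 CPM [5.10 to 8.72], 11.4 CPM [9.62 to 13.3] and 12.01 CPM [10.6 to 13.6], an aged over young ratio of 1.69 [1.24 to 2.33].

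Set beside monocytes, which should lack it, the level of Cd27 in B cells was above theirs beyond counting error in the aged library only, since the intervals overlapped in the young and aged-GA libraries. Monocytes stood at 8.01 CPM [0.970 to 28.9], 3.93 CPM [2.43 to 6.01] and 7.26 CPM [3.75 to 12.7]. In the barcodes dominated by haemoglobin, Cd27 stood at 2.65, 17.4 and 28.7 CPM of the UMIs that are not haemoglobin, from 1, 20 and 27 UMIs. The T markers in B cells had the same order of libraries, as given above, and their part in the Cd27 ratio was not tested. The B cell ratio of Cd27 kept 1.5-fold under 7 of 11 alternative settings, with log2 values of 0.28 to 0.74.

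In T cells, 3 of the 6 members with at least 100 UMIs were past 1.5-fold higher in aged than in young mice, Tnfsf8, Tnfrsf4 and Tnfrsf9, and none was lower. Of all genes tested in T cells, 29.2% were past 1.5-fold higher and 2.74% lower, 31.9% in all, and their median log2 ratio was 0.36. With haemoglobin, mitochondrial and ribosomal protein genes taken out of the total, the median fell to 0.16 and the share of higher genes among those past 1.5-fold went from 91.4% to 75.5%. Tnfrsf9 was then no longer past 1.5-fold, at 0.48, and Tnfrsf13b turned from 0.14 to -0.07. The make-up of the T cells differed between libraries. T cells leaning to naive, by genes such as Ccr7 and Lef1, were 62.0%, 25.5% and 23.3%, and those leaning to memory, by genes such as Cxcr3 and Ccl5, were 5.22%, 37.5% and 27.7%.

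Tnfsf8, the CD30 ligand, had the largest ratio in T cells between young and aged mice among the members with at least 100 UMIs. It stood at 27.8 CPM [25.9 to 29.8] in the young, 78.6 CPM [73.3 to 84.1] in the aged and 81.2 CPM [77.4 to 85.1] in the aged-GA library, with the aged and aged-GA intervals overlapping each other and not the young one. Aged over young, the ratio was 2.82 [2.56 to 3.11], or 1.11 on the log2 scale above the median of all genes. With every cell thinned to 2000 UMIs, 5.51%, 12.02% and 12.9% of T cells had a Tnfsf8 UMI, against 11.9%, 23.0% and 27.9% before thinning. In B cells the thinned shares were 0.0914%, 0.185% and 0.350%. Thinning left out 42, 64 and 33 T cells, and the median depth of T cells was 5007, 4498 and 5732 UMIs.

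The difference in Tnfsf8 was larger over all CD4 T cells than over all CD8 T cells, but not among the naive-leaning ones. CD4 T cells stood at 32.4 CPM [27.6 to 37.7], 148 CPM [133 to 164] and 151 CPM [139 to 164], an aged over young log2 ratio of 2.19 [1.92 to 2.47]. CD8 T cells stood at 24.5 CPM [21.7 to 27.6], 43.6 CPM [37.7 to 50.1] and 53.9 CPM [49.7 to 58.3], a log2 ratio of 0.83 [0.56 to 1.095]. These intervals do not overlap, though they cover counting error only.

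Tnfsf8 also differed within CD4 T cells of one kind. Naive-leaning CD4 T cells stood at 31.6, 81.6 and 43.7 CPM and memory-leaning ones at 76.4, 207 and 254 CPM, an aged over young ratio of 2.58 in the first and 2.71 in the second. Naive-leaning CD8 T cells had a like ratio, 2.55, from 17.3 to 44.1 CPM with aged-GA at 46.3 CPM. Memory-leaning cells were 33 of 1005, 205 of 515 and 282 of 711 CD4 T cells without Foxp3. The young memory-leaning level, and with it the ratio of 2.71, thus rests on 33 cells. Aged-GA over aged, the log2 ratio was -0.90 [-1.45 to -0.36] in naive-leaning and 0.29 [0.02 to 0.57] in memory-leaning CD4 T cells. The 2 kinds thus stood on opposite sides of 0 while CD4 T cells as a whole stood level, a difference that was not tested, and the naive-leaning value rests on 66 and 52 UMIs. Memory-leaning CD8 T cells went the other way between young and aged mice, at 27.4, 9.72 and 19.2 CPM, a log2 ratio of -1.49 [-2.95 to -0.02] that rests on 9 and 10 UMIs. T cells with Foxp3 stood at 36.2 CPM [18.7 to 63.2], 26.8 CPM [10.8 to 55.3] and 76.0 CPM [47.7 to 115].

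**Figure D3:**
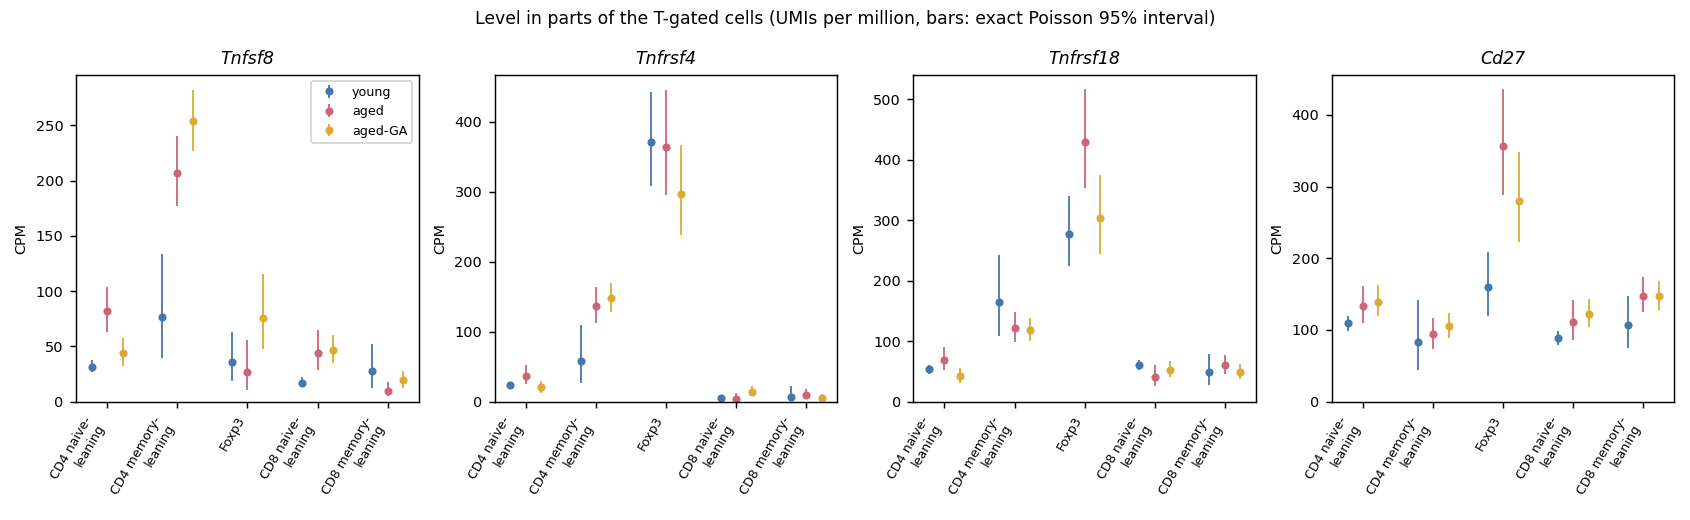
Levels (CPM, linear axis from 0) of Tnfsf8, Tnfrsf4, Tnfrsf18 and Cd27 in naive-leaning and memory-leaning CD4 and CD8 T cells and in T cells with Foxp3, as points with exact 95% Poisson intervals, for the young, aged and aged-GA libraries. Tnfrsf4, Tnfrsf18 and Cd27 stand highest in the Foxp3 T cells of all 3 libraries, and Tnfsf8 in the memory-leaning CD4 T cells of the aged and aged-GA libraries, at 207 and 254 CPM.

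Tnfrsf4 (OX40), a receptor of activated CD4 and regulatory T cells, stood in T cells at 24.0 CPM [22.3 to 25.9], 44.8 CPM [40.8 to 49.0] and 31.8 CPM [29.5 to 34.3]. The 3 intervals do not overlap, with the aged library highest and the aged-GA library between the others. Aged over young the ratio was 1.86 [1.65 to 2.10], or 0.51 on the log2 scale above the median of all genes, and aged-GA over aged it was 0.711 [0.631 to 0.801]. CD8 T cells held little of it, at 5.28, 6.35 and 6.57 CPM. The T cells with Foxp3, 74, 57 and 52 cells, stood at 371 CPM [308 to 442], 364 CPM [295 to 445] and 297 CPM [238 to 367], and so did not differ between libraries beyond counting error. They held 17.8%, 20.04% and 12.7% of the Tnfrsf4 UMIs of T cells from 1.16%, 2.46% and 1.36% of all T cell UMIs.

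CD4 T cells without Foxp3 also held Tnfrsf4, and differed between young and aged mice. They stood at 30.9 CPM [26.2 to 36.2], 88.7 CPM [76.8 to 102] and 78.3 CPM [69.4 to 87.9], an aged over young ratio of 2.87, while the aged-GA over aged log2 ratio was -0.18 [-0.45 to 0.09]. T cells called neither CD4 nor CD8 were not described on their own. Memory-leaning CD4 T cells stood at 57.3, 136 and 147 CPM, from 9, 112 and 196 UMIs. Naive-leaning ones stood at 23.2, 37.1 and 20.2 CPM, from 94, 30 and 24 UMIs. Their aged-GA over aged log2 ratio was -0.88 [-1.72 to -0.06], and that of memory-leaning ones 0.11 [-0.23 to 0.46]. When the naive-leaning, memory-leaning and remaining T cells of each library were weighted as in the young library, the levels were 24.0, 32.6 and 24.3 CPM, and the aged over young log2 ratio fell from 0.87 to 0.43, no longer past 1.5-fold. The aged-GA library was still below the aged one.

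Tnfrsf18 (GITR), the neighbour of Tnfrsf4, stood in T cells at 61.2 CPM [58.3 to 64.1], 86.9 CPM [81.4 to 92.7] and 67.0 CPM [63.6 to 70.6], the same order of libraries as Tnfrsf4. Aged over young the ratio was 1.42 [1.31 to 1.54], below 1.5-fold and 0.14 on the log2 scale above the median, and aged-GA over aged it was 0.771 [0.709 to 0.839]. CD8 T cells hardly differed, at 52.8, 51.2 and 50.1 CPM. CD4 T cells without Foxp3 stood at 60.3, 94.5 and 83.5 CPM, an aged over young ratio of 1.57. Naive-leaning CD4 T cells stood at 53.3, 69.2 and 42.0 CPM and memory-leaning ones at 166, 122 and 119 CPM. These memory-leaning values rest on 26, 100 and 158 UMIs. All naive-leaning T cells stood at 59.9, 58.9 and 48.5 CPM and all memory-leaning ones at 94.5, 119 and 104 CPM. Weighted to the make-up of the young library, T cells stood at 61.2, 69.7 and 55.7 CPM. The share of CD4 T cells, given above with Cd40, differed between libraries. CD8 T cells made up 33.1%, 36.3% and 45.04% of T cells. The part of these shares in the Tnfrsf18 ratios was not tested. T cells with Foxp3 stood at 277 CPM [224 to 340.2], 429 CPM [354 to 517] and 304 CPM [244 to 375], so that the young and aged intervals did not overlap. Their aged over young log2 ratio was 0.63 [0.22 to 1.04] and their aged-GA over aged log2 ratio -0.50 [-0.92 to -0.08]. NK cells had intervals that overlapped with those of T cells in all 3 libraries, at 80.0 CPM [61.9 to 102], 77.0 CPM [57.1 to 101] and 90.4 CPM [69.3 to 116]. In B cells it was 13.9, 15.2 [13.2 to 17.4] and 19.5 CPM [17.7 to 21.4]. Monocytes stood at 0, 3.75 and 2.42 CPM and neutrophils at 0, 13.02 [8.58 to 18.9] and 9.53 CPM [5.21 to 16.0], so that the aged B cells and neutrophils overlapped.

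T cells with Tnfrsf4 held Tnfrsf18 at a higher share than those without, and the intervals did not overlap in any library. With every cell thinned to 2000 UMIs, 28.8% [22.7 to 35.5], 30.1% [22.7 to 38.3] and 25.8% [20.1 to 32.2] of T cells with a Tnfrsf4 UMI also had Tnfrsf18, against 10.6% [9.73 to 11.4], 13.8% [12.3 to 15.4] and 12.6% [11.4 to 13.8] of those without. Tnfsf8 was found in 9.27%, 26.6% and 31.3% of T cells with Tnfrsf4 and in 5.36%, 10.95% and 11.7% of those without. The intervals of these shares overlapped in young mice only. In B cells, Tnfrsf13c was found in 25.2%, 26.6% and 24.9% of cells with Tnfrsf13b and in 20.2%, 20.1% and 22.5% of those without, with intervals that overlapped in the young and aged-GA libraries. Cd27 with Tnfrsf18 in T cells, and Cd40 with Tnfrsf13b or Tnfrsf13c in B cells, had overlapping intervals in all 3 libraries. Cells of 1 library are not replicates, and these shares are a description.

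Foxp3 T cells also differed in Cd27. They stood at 159.8 CPM [119.7 to 209], 356 CPM [288 to 437] and 280.0 CPM [222 to 348], an aged over young log2 ratio of 1.16 [0.66 to 1.67]. CD4 T cells without Foxp3 stood at 111, 119 and 126 CPM and CD8 T cells at 93.3, 119 and 132 CPM. The Foxp3 values come from 53, 93 and 81 UMIs.

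Tnfrsf9 (4-1BB), a receptor of activated T and NK cells, was highest in NK cells. They stood at 84.9 CPM [66.2 to 107], 27.7 CPM [16.4 to 43.8] and 61.2 CPM [44.1 to 82.8], from 70, 18 and 42 UMIs. The aged library had the lowest value, but 1 young NK cell held 13 of these UMIs and 1 aged-GA cell 14, while no aged cell held more than 1. The share of NK cells with a UMI was 12.5% [8.80 to 17.2], 8.91% [5.37 to 13.7] and 11.9% [7.76 to 17.2], and 8.61%, 5.78% and 7.18% after thinning, with intervals that overlap in all 3 libraries, so no order is drawn from the levels. T cells stood at 3.69 CPM [3.02 to 4.47], 6.23 CPM [4.82 to 7.93] and 3.14 CPM [2.43 to 3.99], from 106, 66 and 67 UMIs, with the aged library above both others. Here too single cells held several UMIs, up to 17, 6 and 3, and the thinned shares of T cells with a UMI were 0.412%, 1.14% and 0.609%. In T cells the ratio was 1.69 [1.22 to 2.32] aged over young and 0.504 [0.353 to 0.719] aged-GA over aged.

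The T cell values of Tnfrsf9 moved with the kind of T cell counted. Memory-leaning T cells stood at 25.7 CPM [18.1 to 35.4], 9.82 CPM [6.76 to 13.8] and 7.62 CPM [5.30 to 10.6], the young library highest, and naive-leaning T cells held 23, 3 and 4 UMIs. Foxp3 T cells held 5, 14 and 3 UMIs. Weighted to the make-up of the young library, T cells stood at 3.69, 3.63 and 1.78 CPM, and the aged over young log2 ratio was -0.02. NK markers in T cells were also highest in the aged library, as given above, and their part in these values was not tested. B cells held 0, 1 and 1 UMIs of Tnfrsf9, and monocytes none, where the limits of a count of 0 are 12.01, 0.562 and 1.81 CPM.

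Aged-GA over aged, 1 of the 6 members with at least 100 UMIs in T cells was past 1.5-fold, Tnfrsf9, which was lower. Of all genes tested, 0.627% were past 1.5-fold higher and 1.99% lower, 2.62% in all, and the median log2 ratio was -0.07. With haemoglobin, mitochondrial and ribosomal protein genes taken out of the total, the share of higher genes among those past 1.5-fold went from 24.0% to 42.2%, and Tnfrsf9 stayed at -0.81. Cd27 at 1.01 and Tnfsf8 at 1.03 stood level, and Tnfrsf13b had a ratio of 0.828 [0.677 to 1.02]. In monocytes 0 of 1 members were past 1.5-fold in both contrasts, where 34.2% and 7.18% of all genes were.

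The ligands that meet these T cell receptors had few UMIs in the gated cells, except Tnfsf9 in aged monocytes. Cd70, which binds Cd27, and Tnfsf18, which binds GITR, had 0 or 1 UMI in each gate of each library. Tnfsf4, which binds OX40, had 4, 9 and 5 UMIs in T cells. Tnfsf9, which binds 4-1BB, was seen in monocytes with 2, 70 and 6 UMIs, or 8.01 CPM [0.970 to 28.9], 13.1 CPM [10.2 to 16.6] and 3.63 CPM [1.33 to 7.90]. The aged and aged-GA intervals did not overlap, though the aged-GA value rests on 6 UMIs. CD30 (Tnfrsf8), the receptor of Tnfsf8, had 3, 23 and 28 UMIs in B cells.

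The other genes of the pathway were taken as 3 lists, of 15 ligands, 17 receptors, and 23 adaptors and NF-kappaB genes. In B cells of aged over young mice, the ligands Lta and Ltb, which shape lymphoid tissue, were 2 of 2 with enough UMIs and both higher, Ltb at 837 against 555 CPM. Among 4 receptors, the TNF receptor Tnfrsf1b (ratio 2.15) and Relt (1.61) were higher and Tnfrsf12a was lower (0.573). Of 23 adaptors, 6 were higher, a share near the 23.1% of all genes, among them Traf3, a brake on BAFF signalling (1.87), and Nfkb2, the factor of the alternative pathway (1.80), and Nfkbia, an inhibitor of NF-kappaB, was lower at 537 against 914 CPM. The median log2 ratio of the adaptors was 0.24 in B cells, beside 0.28 over all genes.

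In T cells of aged over young mice, 3 of 7 ligands were higher and 1 lower. Fasl (2.38), Tnfsf10 (2.71) and Tnfsf11 (2.97), the first a cytotoxic ligand, the second TRAIL and the third RANKL, were higher and Tnf (0.404) was lower. Of 10 receptors, 4 were higher, with Tnfrsf1b going from 9.23 to 42.6 CPM, and Tnfrsf12a was lower (0.434). Of 23 adaptors, 10 were higher, beside 29.2% of all genes, and 0 lower, including Traf3 (2.11), Nfkb2 (2.11) and Ripk1 (2.02), and their median was 0.55 beside 0.36 over all genes. Traf3 stood at 13.1, 27.6 and 21.4 CPM in T cells and at 21.96, 41.1 and 34.1 CPM in B cells. The make-up of the T cells and the NK markers in them differed between libraries, as given above. Their part in the T cell ratios of the 3 lists was not tested. In monocytes of aged over young mice the adaptors stood the other way, with 0 higher and 8 lower of 19 and a median of -0.36, where 20.1% of all genes were higher and 14.1% lower. The make-up of the monocytes differed too, with Ly6c2 or Ccr2 in 5 of 52 young and 404 of 783 aged ones. Its part in these ratios was not tested. In neutrophils 1 adaptor was higher and 3 lower of 7, where 40.8% of all genes were higher, 11.5% lower and 52.3% either. Tnfaip3, an inhibitor of NF-kappaB, was among the higher in T cells and the lower in monocytes and neutrophils. The young values in the latter gates rest on 52 monocytes and 12 neutrophils, so no difference between cell types is drawn from this. Aged-GA over aged, 0 genes of the 3 lists were past 1.5-fold in B or T cells. In monocytes 2 of 19 adaptors were higher, Relb and Nfkbie, where 4.03% of all genes were past 1.5-fold higher and 7.18% either way. The adaptor median was 0.23, beside 0.07 over all genes. In neutrophils 2 of 11 adaptors were higher, Nfkbia and Tnfaip3, and so were Tnf and Tnfrsf23. Of all genes in neutrophils, 4.79% were past 1.5-fold higher and 5.85% either way. The adaptor median there was 0.40, beside 0.11. In plasma cells 1 of 5 adaptors was higher, Rel, where 7.37% of all genes were past 1.5-fold higher and 10.8% either way.

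**Figure D4:**
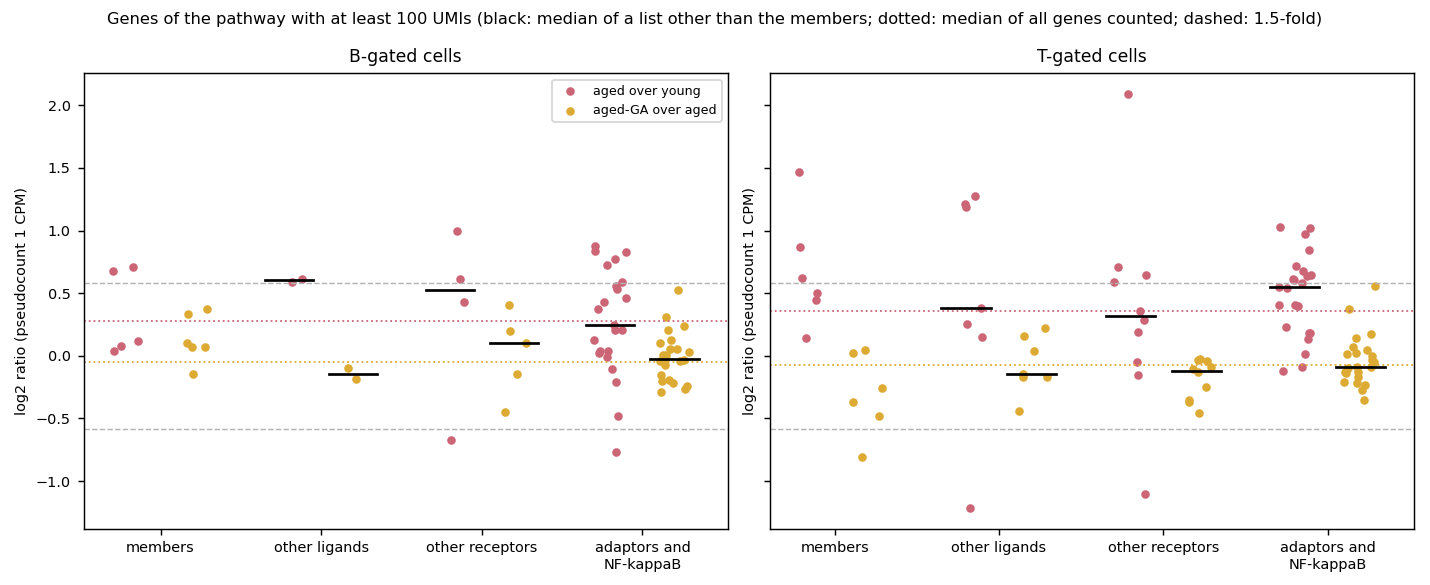
Log2 ratios, with 1 CPM added to both levels, of the members and of the genes of the 3 pathway lists that had at least 100 UMIs, in B-gated and T-gated cells, aged over young and aged-GA over aged. Each point is a gene, spread sideways only so that points can be seen, black lines mark the medians of the 3 lists, dotted lines those of all genes and dashed lines 1.5-fold. The list medians lie at 0.24 to 0.60 for aged over young and between -0.15 and 0.11 for aged-GA over aged.

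The genes whose pattern over the 6 gates of the 3 libraries was most like that of each member were found by Pearson correlation of log2(CPM + 1). Over these 18 points and 8952 genes, Tnfrsf13c was most like Pax5, H2-DMb2 and Vpreb3, each with a Pearson r of 0.96, and Tnfrsf17 most like Sec11c (0.94) and Edem2 (0.93), genes of protein secretion. Tnfrsf13b was most like Mtss1 (0.94) and Dnase2a (0.93), Cd40 like Cd180 (0.91) and Tnfsf13b like Pram1 (0.98). Cd27 was most like Abhd8 and Lef1 (both 0.96), Tnfrsf4 like Tdrp (0.91) and Cd5 (0.90), Tnfrsf18 like Gimap9 and Lck (both 0.95), Tnfrsf9 like Klra4 (0.97) and Tnfsf8 like Cd6, Camk4 and Cd4 (0.93 each). Among the members, the highest r was 0.83, between Tnfrsf4 and Tnfsf8, and Tnfrsf13b and Tnfrsf13c reached 0.71. The points share libraries and gates, so these values only describe the pattern.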

How the data were processed

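The data were 3 libraries of mouse PBMCs, 1 for each group. Reads had been mapped with Cell Ranger, and the values the authors deposited are unnormalized UMI counts for every gene in every barcode. The matrix headers name version 5.0.0, the submitters' processing notes name mm10, and the annotation was not given in the sources used here. The methods of the study name another Cell Ranger version. No other columns were left unused, and no UMI lay in rows without a gene.

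A cell was kept if it had 200 genes or more, no more than 90% of the highest gene number of its library, and no more than 7.5% mitochondrial UMIs, after the methods of the study. Cells with over 10% haemoglobin UMIs were left out. A cell passed a gate with at least 2 markers and 3 UMIs of its class (plasma cells 4 markers and 10 UMIs; NK cells, in addition, an NK receptor gene and no pass of the T gate). Cells that passed more than 1 gate were set aside as mixed, which stood in for doublet removal. Plasma cells that also passed the B gate were kept as plasma cells. CD4 T cells had at least 1 Cd4 UMI and no Cd8a or Cd8b1, and CD8 T cells at least 2 Cd8a or Cd8b1 UMIs and no Cd4. Naive-leaning and memory-leaning T cells had at least 2 markers of their own list and at most 1 of the other. One gene of the naive list is not reported here.

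UMI counts were summed per gate and library and given as CPM, with exact Poisson intervals, exact binomial (Clopper-Pearson) intervals for shares and conditional exact intervals for ratios. Intervals and limits cover counting error only, and a count of 0 was given the limit that 3 UMIs would reach. No test was run. The calculation was tested on simulated data. Named genes were the 10 members, the genes of 3 pathway lists past 1.5-fold or at the highest level, and for each member with at least 200 UMIs the 3 genes most alike in log2(CPM + 1). Partner ligands and receptors were named whatever their values. The members and lists were chosen with earlier results of these data known. Python 3.11.15, numpy 2.4.6, scipy 1.17.1, pandas 2.3.3, scanpy 1.11.5 (Scrublet) and matplotlib 3.10.9 were used. Symbols were matched to GENCODE positions by gene ID for 32235 of 32285 genes, and promoter sequences are those of RefSeq. Alternatives were other gates, filters, pseudocounts, totals and doublet removal.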

Additional observations from a re-analysis of the deposited data

How the results depend on the processing

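Of the members in B cells, the count past 1.5-fold for aged over young was 2 and became 1 when each cell went to the class with the most marker UMIs, without a haemoglobin limit, with a pseudocount of 10 CPM, and by the mean of the CPM of each cell, each time without Cd27. Aged-GA over aged it was 0 and became 2 with the class of most marker UMIs. In T cells the count for aged over young was 3 and became 6 with the class of most marker UMIs, 5 with a minimum of 20 UMIs, and 1 when T cells were weighted to the make-up of the young library, where only Tnfsf8 remained. For aged-GA over aged it went from 1 to 0 with a pseudocount of 10 CPM. In monocytes the count for aged over young went from 0 to 1 with the class of most marker UMIs and when cells that passed both the monocyte and neutrophil gates were counted as monocytes, and to 4 with a minimum of 20 UMIs. With that minimum it went from 0 to 1 in monocytes and in plasma cells for aged-GA over aged and in neutrophils for aged over young. In plasma cells it also went from 0 to 1 by the mean of the CPM of each cell. For aged over young, the log2 ratio of Tnfrsf9 in T cells turned from 0.62 to -0.0195 when weighted, and that of Tnfrsf17 in plasma cells from 2.52 to -0.18 with all cells of the plasma gate. Weighting alters how much each kind of T cell counts, and a lower minimum lets more members be counted. The cause of each change was not tested.

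Tnfrsf13b in B cells stayed past 1.5-fold under 11 of 11 alternatives (log2 0.60 to 0.71) and Tnfsf8 in T cells under 12 of 12 (1.23 to 1.72). Tnfrsf4 in T cells did so under 11 of 12, Tnfrsf9 in T cells under 6 of 12 for aged over young and 9 of 11 for aged-GA over aged. The weighting, the joined monocyte class, the full plasma gate and the removal of the 5% of cells with the highest Scrublet score were chosen after seeing the data. The automatic Scrublet threshold marked 437, 451 and 0 cells in young, aged and aged-GA mice and so was used for aged over young only. No paired analysis was possible because there was 1 library per group, for which reason no replicate could be left out either. Depth limited what could be seen in the 3 plasma cells, 12 neutrophils and 52 monocytes of the young library.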
